A study of Mus musculus with 18 samples.

Results

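CpG sites that carried little methylation in hypothalamus and much in both gonadal adipose tissue and liver were described in young male mice. A CpG is a cytosine followed by a guanine, and its level is the share of sequencing reads in which the cytosine was methylated. A site was chosen when it lay on chromosomes 1 to 19, was covered by at least 20 reads in each of the 6 pools of samples described next, and had a level of at most 35% in hypothalamus with at least 65% in adipose tissue and at least 65% in liver. The level of a tissue is the mean of its 2 pools weighted by reads. This choice took 1710 of the 1275720 CpGs with that coverage, or 0.134%. By the mirrored choice, 2102 CpGs were low only in adipose tissue and 5748 were low only in liver.

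The samples come from a study of exposure to bisphenol A (BPA) before birth. BPA is a building block of plastics that acts weakly on oestrogen receptors. Inbred C57BL/6 dams were gavaged daily with 5 mg BPA per kg in corn oil, or with corn oil alone, from day 1 to day 20 after conception. At 3 weeks of age, hypothalamus, gonadal adipose tissue and liver of their male offspring were collected, with 3 samples for every treatment and tissue and 18 in all. There were 4 BPA litters and 3 control litters, and which sample came from which litter was not given in the sources used here. Methylation was read by reduced representation bisulfite sequencing (RRBS), in which the enzyme MspI cuts DNA at CCGG and bisulfite converts unmethylated cytosines, so that mostly CpG-rich fragments are seen.

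For each treatment and tissue the authors' values join the 3 samples, so a level belongs to 1 pool and carries no error between animals. The tables number the pools 0 and 1, and 0 was taken as control only because a label names that group first. If the numbering were reversed, every direction between BPA and control would turn. At the chosen CpGs the median coverage was 129 reads in the BPA pool and 130 in the control pool of hypothalamus, 235.5 and 207 in adipose tissue, and 153 and 162.5 in liver. All intervals are 95% intervals for counting error only, exact Clopper-Pearson for levels and Newcombe for differences. In bulk tissue, a change in the share of cells of a type and a change of methylation within cells cannot be told apart.

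DNA methylation in mammals sits mainly on CpGs. CpG islands at gene starts are mostly free of it, while gene bodies and the DNA between genes carry it. Sites that lose methylation in 1 cell type but not in others often lie in enhancers and other regulatory DNA away from gene starts, where bound transcription factors and the TET enzymes keep methylation low. The hypothalamus holds many kinds of neurons beside astrocytes, oligodendrocytes, tanycytes, microglia and endothelium, and it governs feeding, growth, reproduction and stress responses. A site free of methylation in only some of these cells shows an intermediate level in the whole tissue.

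Sequence was at hand for windows around gene starts, from 250 bases before a start to 50 after it. Such windows held 28 of the 1648 chosen CpGs on chromosomes that the table of windows covers, or 1.70%, against 8.71% of all CpGs with the same coverage and 0.414% of those that had 65% or more in adipose tissue and liver whatever the level in hypothalamus. The table lacks starts of some genes, so CpGs near those starts are not counted in these shares. The 28 lay in 18 windows of 17 genes, and 6 windows held more than 1. These 6 are printed because they show where the chosen CpGs stand among their neighbours. They come from RefSeq on build GRCm38.p6, run 5′ to 3′ on the strand of the gene, and have the chosen CpGs in capitals. A CpG in small letters was either well covered and not chosen, or not well covered. In Dlg1 only 2 of 4 CpGs and in Gm32036 only 2 of 7 were well covered, all of them chosen. In Gm33931 8 of 11 and in Gm34996 5 of 7 were well covered. The windows are those of Lingo2 at chr4:35845155-35845454 (minus strand), Crocc at chr4:141053612-141053911 (minus), Dlg1 at chr16:31754100-31754399 (plus), and 3 gene models, Gm32036 at chr13:20472920-20473219 (minus), Gm33931 at chr5:128656706-128657005 (minus) and Gm34996 at chr14:27876419-27876718 (plus).
Lingo2: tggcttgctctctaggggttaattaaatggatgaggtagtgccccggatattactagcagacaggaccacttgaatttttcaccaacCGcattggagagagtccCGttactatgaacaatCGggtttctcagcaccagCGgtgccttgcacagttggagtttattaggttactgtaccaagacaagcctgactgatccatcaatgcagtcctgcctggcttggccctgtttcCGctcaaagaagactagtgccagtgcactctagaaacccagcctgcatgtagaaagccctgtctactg
Crocc: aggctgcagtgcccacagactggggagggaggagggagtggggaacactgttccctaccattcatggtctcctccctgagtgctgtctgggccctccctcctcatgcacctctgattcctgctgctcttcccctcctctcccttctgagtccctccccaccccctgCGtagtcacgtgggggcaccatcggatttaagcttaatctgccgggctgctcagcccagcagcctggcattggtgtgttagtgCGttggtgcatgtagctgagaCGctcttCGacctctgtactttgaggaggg
Dlg1: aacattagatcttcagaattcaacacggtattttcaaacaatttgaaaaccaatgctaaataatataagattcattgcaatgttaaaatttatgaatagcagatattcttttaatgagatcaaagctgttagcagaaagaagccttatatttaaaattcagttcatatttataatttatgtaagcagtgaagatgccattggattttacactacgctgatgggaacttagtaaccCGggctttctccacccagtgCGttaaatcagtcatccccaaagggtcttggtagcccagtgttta
Gm32036: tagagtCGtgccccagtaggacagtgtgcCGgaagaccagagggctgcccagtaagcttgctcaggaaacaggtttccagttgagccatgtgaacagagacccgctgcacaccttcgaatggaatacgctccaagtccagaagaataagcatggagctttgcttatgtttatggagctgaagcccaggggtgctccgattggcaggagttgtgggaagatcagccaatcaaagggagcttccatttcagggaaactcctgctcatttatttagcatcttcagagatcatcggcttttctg
Gm33931: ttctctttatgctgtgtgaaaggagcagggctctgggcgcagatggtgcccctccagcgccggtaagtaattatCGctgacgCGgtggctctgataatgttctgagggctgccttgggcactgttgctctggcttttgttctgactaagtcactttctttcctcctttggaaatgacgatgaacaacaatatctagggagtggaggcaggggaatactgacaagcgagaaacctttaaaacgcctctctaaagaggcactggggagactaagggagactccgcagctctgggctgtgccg
Gm34996: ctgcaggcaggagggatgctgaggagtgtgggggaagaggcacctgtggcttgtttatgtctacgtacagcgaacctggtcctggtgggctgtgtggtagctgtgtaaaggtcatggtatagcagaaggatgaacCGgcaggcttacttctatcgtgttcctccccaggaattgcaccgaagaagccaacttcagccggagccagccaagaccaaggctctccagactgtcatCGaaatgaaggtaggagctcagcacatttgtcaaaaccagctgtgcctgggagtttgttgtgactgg

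Lingo2 encodes a transmembrane protein with leucine-rich repeats that is made in the nervous system, and its window held 6 CpGs in all. Of these 5 were chosen, 18, 112, 130, 146 and 163 bases before this start. The window lies inside the gene body, which spans chr4:35696778-36951744 on the minus strand. This start is thus not the one at the outer end of the gene. Together the 5 had 22.5% methylated reads in the BPA pool and 23.3% in the control pool of hypothalamus, against 84.2% and 81.6% in adipose tissue and 85.8% and 84.1% in liver. The site 18 bases before the start stood at 9.52% of 21 reads in the BPA pool and 23.9% of 46 reads in the control pool of hypothalamus, and at 75.8% or more in the 4 pools of the other tissues.

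In the window of Crocc, which encodes rootletin, a structural protein of the ciliary rootlet, 4 of 7 CpGs were chosen. They lay 84 bases and 1 base before this start and 20 and 27 bases after it. This window too lies inside the gene body, which spans chr4:141016637-141060615, and its start is not at the outer end. The 4 sites together had 25.1% in the BPA pool and 19.4% in the control pool of hypothalamus, 68.9% and 72.5% in adipose tissue, and 80.6% and 78.9% in liver. Dlg1, a scaffold protein of synapses and cell junctions, had 2 chosen CpGs, 15 bases before and 5 bases after this start. They stood at 28.2% in the BPA pool and 30.8% in the control pool of hypothalamus, against 68.0% and 75.9% in adipose tissue and 83.5% and 87.0% in liver. The 3 gene models had 2 each, and the levels of the windows in hypothalamus lay between 20.4% and 35.03% over their 6 pool values. Gm32036 lies within the body of Elmo1, a cell migration and engulfment protein, and Gm34996 within that of Erc2, a scaffold of the presynaptic active zone.

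The other 12 windows held 1 chosen CpG each. The lowest was 39 bases before the start of 1700042O10Rik, inside the body of Ddc, the aromatic amino acid decarboxylase that completes the synthesis of dopamine and serotonin. There 6.67% of 45 reads in the BPA pool (1.40 to 18.3%) and 6.67% of 60 reads in the control pool (1.85 to 16.2%) of hypothalamus were methylated. Adipose tissue had 66.7% and 65.7% and liver 84.3% and 84.0%. The site 46 bases after a start of Rufy3, a protein of axon and neuron polarity, had 17.3% and 11.8% in the BPA and control pools of hypothalamus, 85% and 82.5% in adipose tissue, and 91.8% and 92.8% in liver. Rtn1, a reticulon of the endoplasmic reticulum in neurons, had a chosen CpG 12 bases before a start with 15% of 60 reads in the BPA pool and 30.9% of 55 reads in the control pool of hypothalamus, against 91.5% and 85.9% in adipose tissue and 81.6% and 77.8% in liver. Further single sites lay in windows of Atp9a, Elmo2, Mier1, Gm2137, Gm35305, Gm46878, 4930579G18Rik and 1700030A11Rik.

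Short motifs were searched on both strands of the 18 windows and of all 31396 windows on these chromosomes. The E-box CAGCTG, a sequence read by basic helix-loop-helix factors, was in 6 of 18 windows (33.3%) against 16.3% of all windows, and the E-box CAGATG was likewise in 6, against 17.2%. Both windows of Gm46878 are among the 6 with CAGATG and overlap, so these are windows of 5 genes. The homeodomain core TAATTA was in 3 windows (16.7%), among them that of Lingo2, against 5.27% of all. GTTGCC, part of the site of RFX factors, was in 3 windows (16.7%) against 12.2%. The palindrome of nuclear factor I was in 0 of 18 and 0.0382% of all windows, and a core of the CTCF motif was in 0 of 18 and 3.48% of all. These counts are small, the windows compared were not matched for base composition, and a match is a description of letters only.

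Across the 1710 chosen CpGs the median hypothalamic level was 28.3%, with an interquartile range of 22.1 to 32.2% and the lowest site at 3.71%. The medians in the BPA and control pools were 27.5% and 27.35% in hypothalamus, 76.3% and 75.9% in adipose tissue, and 82.7% in each pool of liver. These levels made the choice and are given as a description, without a test. Under 10% in hypothalamus were 14 CpGs, and 282 were between 10 and 20%, while 735 lay between 20 and 30% and 679 between 30 and 35%. The other 2 tissues were not alike, since liver was above adipose tissue at 1214 CpGs and below it at 496.

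**Figure D1:**
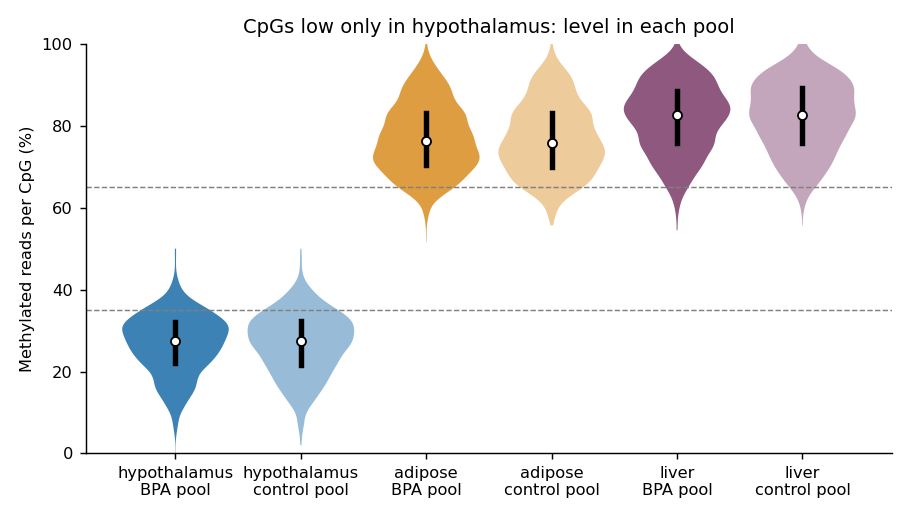
Level of the 1710 CpGs low only in hypothalamus in each of the 6 pools, in percent of reads methylated. Shapes give the distribution over CpGs, white points the median, black bars the middle 50% of CpGs and dashed lines the thresholds of 35% and 65%; the medians of BPA and control pools are 27.5% and 27.35% in hypothalamus, 76.3% and 75.9% in adipose tissue and 82.7% and 82.7% in liver.

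The thresholds cut through a continuous range. Between 34 and 35% in hypothalamus there were 152 chosen CpGs, and between 35 and 36% another 161 CpGs met the thresholds of the other tissues and were left out. Likewise 98 chosen CpGs had the lower of adipose tissue and liver between 65 and 66%, and 106 missed by lying between 64 and 65%. The intervals of all 3 tissues cleared the thresholds at 605 CpGs (35.4%). The gap between hypothalamus and the nearer of the other tissues had a median of 47.9 points, was at least 60 points at 217 CpGs and reached 83.5 points. That widest gap was at a CpG in Trpm3, a cation channel of sensory neurons and brain, at chr19:22958485. It had 7.14% of 28 reads (0.877 to 23.5%) in the BPA pool and 3.12% of 32 reads (0.0791 to 16.2%) in the control pool of hypothalamus, with 91.7% and 88.1% in adipose tissue and 90.6% and 85.7% in liver.

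Because both pools made the choice, the same rule was also applied to the pools of 1 treatment and read in the other. Chosen in the BPA pools alone, 1937 CpGs met the thresholds. In the control pools, hypothalamus was the lowest tissue at 1928 of them and at least 30 points below both others at 1620 (83.6%), with medians of 30% in hypothalamus, 75.8% in adipose tissue and 82.9% in liver. Chosen in the control pools alone, 1807 CpGs met them. In the BPA pools, hypothalamus was lowest at 1802 and at least 30 points below both at 1556 (86.1%), with medians of 29.4%, 76.1% and 82.6% in that order of tissues. The full thresholds were met in both sets of pools by 1075 CpGs, 55.5% of those chosen in BPA and 59.5% of those chosen in control. The pattern was thus present in samples that did not take part in the choice, though many sites missed a threshold there. By how much they missed it was not measured.

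CpGs too thinly covered to be chosen gave another reading. Within 100 bp of a chosen CpG there were 128 CpGs with 5 or more reads in each pool but under 20 in some pool. Their medians were 31.7% in hypothalamus, 71.8% in adipose tissue and 82.3% in liver. Hypothalamus was the lowest tissue at 125 of the 128, and at least 30 points below both others at 71 (55.5%), against 0.843% of all 216484 thinly covered CpGs. Some of these CpGs share reads with chosen ones.

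Well-covered CpGs that the thresholds left out were read by their distance from the nearest chosen CpG. At 1 to 50 bp from a chosen CpG, 62.3% of 1650 CpGs had hypothalamus at least 30 points below both other tissues, and their medians were 35.99% in hypothalamus, 69.3% in adipose tissue and 79.99% in liver. The share was 45.7% at 51 to 100 bp, 31.6% at 101 to 200 bp, 10.7% at 201 to 500 bp and 2.21% at 501 to 1000 bp. Over all well-covered CpGs outside the set it was 0.484%. At 501 to 1000 bp the median levels were 1.99%, 3.75% and 5.33% in hypothalamus, adipose tissue and liver. The CpGs covered at this distance were mostly free of methylation in all 3 tissues. A gap of 30 points cannot occur at such CpGs, so the falling share does not measure how far the low level reached. Near CpGs can also share reads with chosen ones.

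**Figure D2:**
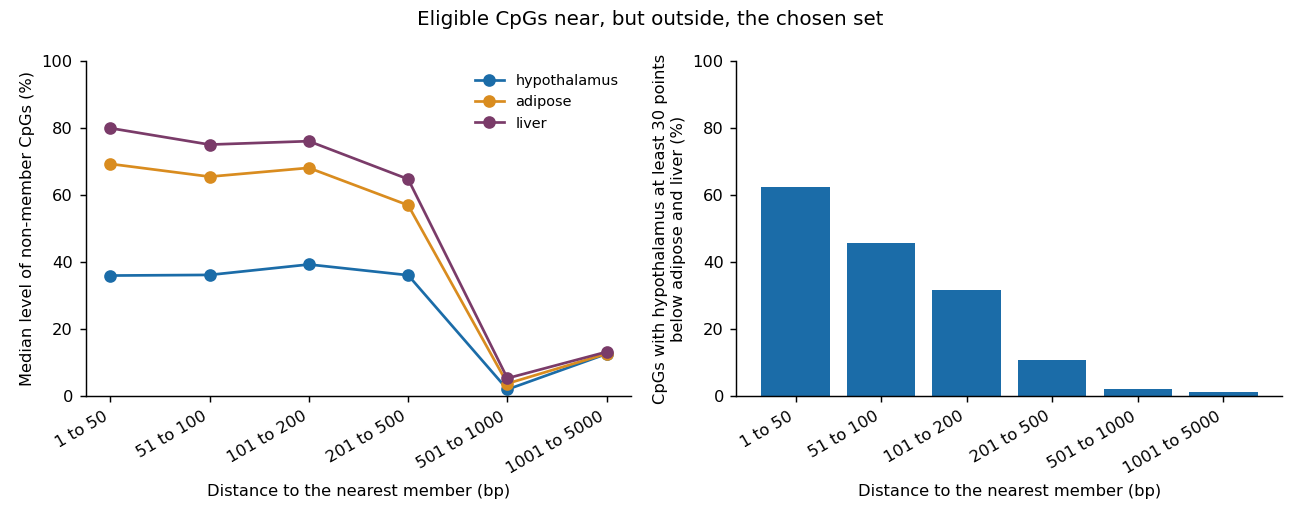
CpGs that were well covered but not chosen, by distance in bp from the nearest chosen CpG: median level in percent of reads for each tissue (left) and percent of CpGs with hypothalamus at least 30 points below both others (right). The right panel drops through 62.3%, 45.7%, 31.6%, 10.7%, 2.21% and 1.101% with distance.

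Joined at gaps of at most 200 bp the chosen CpGs formed 921 clusters, of which 568 were single CpGs and 353 held 2 or more. These 353 contained 1142 CpGs, or 66.8%, beside 49.8% of CpGs low only in adipose tissue and 71.7% of those low only in liver. Joined in the same way, all well-covered CpGs, a far denser set, had 97.6% in clusters of 2 or more, so the share by itself does not set the chosen CpGs apart. There were 163 clusters of 3 or more, with a median span of 142 bp, 63 of 5 or more and 18 of 8 or more. Fragment size limits the span that RRBS can show.

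**Figure D3:**
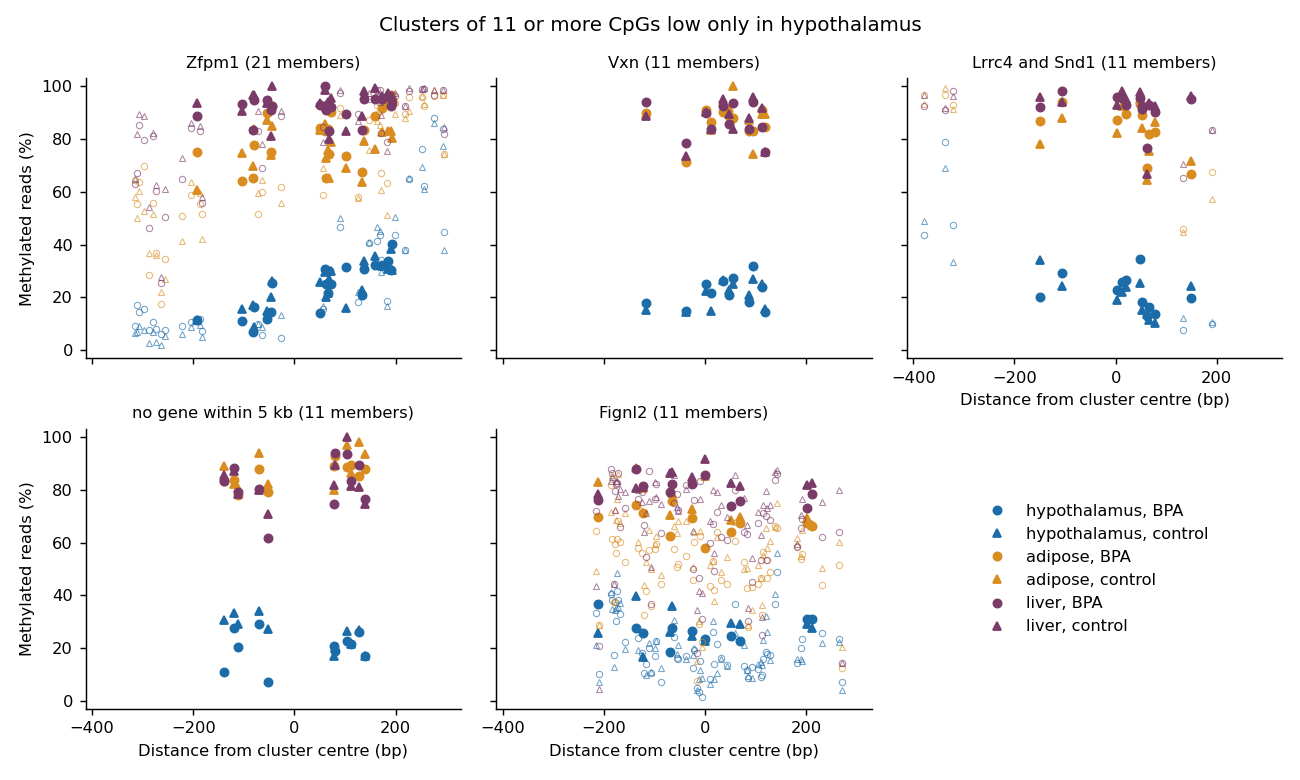
Shown are 5 clusters with 11 or more chosen CpGs: percent of reads methylated against distance in bp from the cluster centre, by tissue (colour) and pool (circles BPA, triangles control), with filled symbols for chosen CpGs and open symbols for other well-covered CpGs. In the cluster in Vxn all 11 CpGs in the span were chosen, while that in Fignl2 has 11 chosen CpGs among 63.

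The largest cluster lay in the body of Zfpm1, which encodes FOG1, a cofactor of GATA transcription factors. At chr8:122336582-122336966 it held 21 chosen CpGs of 34 well covered in 385 bp. Over the 21, methylated reads made up 24.4% in the BPA pool and 25.3% in the control pool of hypothalamus, 79.95% and 75.6% in adipose tissue, and 91.6% and 93.8% in liver. Single CpGs of both pools together ran between 11.4 and 34.8% in hypothalamus and between 65.6 and 89.7% in adipose tissue. The 13 CpGs in the span that were not chosen had medians of 17.6% in hypothalamus, 62.0% in adipose tissue and 86.5% in liver. With a further cluster at lower coordinates, Zfpm1 held 26 chosen CpGs, the most of any gene, and among its 279 well-covered CpGs the others had medians of 40.8%, 47.3% and 41.5% in the same order.

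Fignl2, a relative of microtubule-severing fidgetin, held 18 chosen CpGs in 3 clusters. The main one, at chr15:101052817-101053239, had 11 chosen CpGs of 63 at 27.3% in the BPA pool and 28.4% in the control pool of hypothalamus, 67.7% and 72.0% in adipose tissue, and 77.7% and 83.3% in liver. Its 52 other CpGs had medians of 17.1%, 56.1% and 72.5%, and the adipose median fell short of 65%.

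Some clusters took up every covered CpG of their span. Vxn, which encodes vexin, a protein that promotes neurogenesis in frog embryos, had 11 of 11 at chr1:9601553-9601788. These stood at 20.3% in the BPA pool and 18.9% in the control pool of hypothalamus, 85.02% and 86.2% in adipose tissue, and 86.2% and 85.1% in liver. A cluster of 11 of 11 at chr14:49127386-49127665 had no gene within 5 kb and stood at 19.8% and 26.3% in hypothalamus, 85.7% and 88.4% in adipose tissue, and 81.1% and 82.0% in liver, BPA pool before control pool. Map4, a microtubule-associated protein found mostly outside neurons, had 9 of 9 at chr9:110052172-110052483. Its hypothalamic level was low among the large clusters, 13.9% in the BPA pool and 14.6% in the control pool, against 79.3% and 77.5% in adipose tissue and 90% and 87.7% in liver.

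Lrrc4 encodes a postsynaptic adhesion protein and is nested in Snd1, an RNA-binding protein of the Tudor family. The cluster at chr6:28831341-28831641, whose nearest CpG lies 106 bp inside the annotated start of Lrrc4, held 11 chosen CpGs of 12. They had 21.3% in the BPA pool and 18.6% in the control pool of hypothalamus, 85.3% and 83.5% in adipose tissue, and 92.0% in each pool of liver. This cluster counts for both genes. Cacng1, an auxiliary subunit of the skeletal muscle calcium channel, held 10 of 14 at chr11:107707872-107708234, with 28.5% and 27.7% in the BPA and control pools of hypothalamus, 76.8% and 74.6% in adipose tissue, and 89.1% and 87.2% in liver. A second cluster of 10, at chr10:117478183-117478480, was over 5 kb from any gene and had 17.7% and 18.2% in hypothalamus, 72.8% and 67.5% in adipose tissue, and 87.3% and 88.0% in liver.

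Foxp4, a forkhead transcription factor, had 9 of 11 CpGs at chr17:47877395-47877684 and 1 more elsewhere in its body. The 9 had 19.1% in the BPA pool and 17.8% in the control pool of hypothalamus, 82.4% and 79.7% in adipose tissue, and 78.9% and 80.8% in liver. Cpa4, a carboxypeptidase, held 12 chosen CpGs of 37 covered in its body, at 22.0% and 20.9% in hypothalamus, 74.8% and 78.0% in adipose tissue, and 80.4% and 80.6% in liver. A cluster of 9 lay between the gene models Gm38584 and 4930402F11Rik at chr7:69493342-69493492, with 24.0% in the BPA pool and 27.7% in the control pool of hypothalamus and 78.96% or more in every pool of the other tissues.

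Several further genes with many chosen CpGs have known roles in neurons. This grouping by role is a description and was not tested. In the list of neuron identity genes, given below, 0.0924% of CpGs were chosen, against 0.134% of all. The well-covered CpGs numbered 200 in Ntrk2, 659 in Tenm3, 478 in Anks1b, 86 in Cdk5r1 and 93 in Khdrbs3. Ntrk2 encodes TrkB, the receptor of brain-derived neurotrophic factor, and held 9 in 4 clusters, at 24.3% in the BPA pool and 24.5% in the control pool of hypothalamus, 73.2% and 76.2% in adipose tissue, and 81.7% and 81.9% in liver. Tenm3, a teneurin that guides the wiring of circuits, held 9 in 3 clusters at 19.3% and 21.3% in hypothalamus, 70.6% and 71.4% in adipose tissue, and 85.9% and 87.6% in liver. Anks1b, a postsynaptic scaffold protein, held 9 at 26.0% and 25.9% in hypothalamus, 78.8% and 75.3% in adipose tissue, and 78.1% and 75.8% in liver. Cdk5r1 encodes p35, which activates the neuronal kinase Cdk5, and held 7 in 4 clusters at 23.6% and 25.4% in hypothalamus, 82.7% and 84.4% in adipose tissue, and 88.8% and 88.9% in liver. Khdrbs3, an RNA-binding protein that regulates splicing of neurexins in the brain, held 7 at 20.1% and 21.5% in hypothalamus, 71.2% and 71.4% in adipose tissue, and 83.3% and 83.6% in liver.

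Others with as many act more widely. Fto, an RNA demethylase whose locus is linked to body mass in humans, held 7 in 1 cluster at chr8:91329963-91330206, at 27.2% in the BPA pool and 22.9% in the control pool of hypothalamus, 85.04% and 86.6% in adipose tissue, and 86.5% and 88.4% in liver. Gse1, a coiled-coil protein, held 9 of 1073 covered CpGs, spread over 5 clusters, at 32.4% and 32.1% in hypothalamus, 74.7% and 72.5% in adipose tissue, and 87.9% and 86.5% in liver. Anks1, an adapter of Eph receptors, held 7 at 21.2% and 20.8% in hypothalamus, 77.0% and 76.9% in adipose tissue, and 86.7% and 90.3% in liver. Ajap1, a protein of adherens junctions, held 7 at 24.4% and 26.4% in hypothalamus, 76.2% and 73.5% in adipose tissue, and 74.1% and 73.8% in liver. Ostm1, the partner of a lysosomal chloride transporter, held 7 at 31.2% and 28.1% in hypothalamus, 90.3% and 90.7% in adipose tissue, and 88.7% and 85.8% in liver.

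In all, 690 genes held a chosen CpG in their body or, for sites in no body, within 5 kb. Of these 327 held 2 or more and 61 held 5 or more. CpGs low only in liver lay in 120 of the 690 genes (17.4%) and CpGs low only in adipose tissue in 71 (10.3%). No such share was taken over all genes with well-covered CpGs, so these shares do not set the 690 genes apart. A gene could hold sites low in different tissues. Zfpm1, for instance, with 279 well-covered CpGs, also held 9 low only in liver and 1 low only in adipose tissue. Tenm3, with 659, held 7 low only in liver.

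At 72 CpGs adipose tissue and liver were both at 90% or more. The lowest of these in hypothalamus was in Hps4, a protein of lysosome-related organelles, at chr5:112372230. It had 15.4% of 123 reads (9.56 to 23.1%) in the BPA pool and 10.2% of 88 reads (4.78 to 18.5%) in the control pool of hypothalamus, against 94.6% and 94.4% in adipose tissue and 94.8% and 94.2% in liver. In Map4, the CpG at chr9:110052384 had 19.2% of 151 reads and 14.3% of 161 reads in hypothalamus, 94.1% and 90.7% in adipose tissue, and 97.9% and 96.1% in liver. In Foxp4, the CpG at chr17:47877553 had 17.6% of 204 reads and 20.2% of 193 reads in hypothalamus, 97.0% and 93.3% in adipose tissue, and 92.9% and 92.5% in liver. Among the 10 lowest of these 72 were 2 more sites in Hps4, a second in Map4, 1 each in Gm4489 and 1500009C09Rik, and 2 over 5 kb from any gene.

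By position, 72.1% of the chosen CpGs lay in a gene body, 8.25% outside one but within 5 kb, and 19.7% farther off. For all well-covered CpGs these shares were 67.4%, 12.2% and 20.4%. A closer set for comparison is the 572531 well-covered CpGs with 65% or more in adipose tissue and liver whatever the level in hypothalamus. Of these 55.8% lay in gene bodies and 34.9% over 5 kb from a gene. Within 1 kb of a start in the table of windows lay 10.4% of the 1648 chosen CpGs on chromosomes it covers. On those chromosomes the share was 28.5% of all CpGs and 2.52% of that closer set. These shares miss CpGs near starts that the table lacks. For the clusters in Vxn and Cdk5r1 the nearest listed start was 164499 and 29180 bp away, farther than either gene is long. A CpG at 20% or less in every tissue lay within 1 kb of 10.5% of the 1710 chosen CpGs, against 43.2% of all and 2.26% of the closer set. CpGs low only in adipose tissue and low only in liver had such a neighbour at 4.28% and 5.13%. The median number of other listed CpGs within 100 bp was 3, as in the closer set, and 5 over all CpGs. None of the chosen CpGs lay in a miRNA hairpin of the RefSeq table, and 7 hairpins, among them Mir219a-2 and Mir92b, had a chosen CpG within 1 kb. Mir219b, also among the 7, lies within Mir219a-2, so a CpG can count for more than 1 hairpin. No share over all hairpins was taken.

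Lists of genes with known roles were set beside the background of 0.134% of all well-covered CpGs. Here a CpG counted for a listed gene when it lay in its body or within 5 kb, also where it lay in the body of another gene. In genes of neuron identity 4 of 4329 CpGs were chosen (0.0924%), 3 in Celf4, an RNA-binding protein of neurons, and 1 in Myt1l, a neuronal zinc finger factor. In genes of hypothalamic developmental transcription factors 1 of 5641 was chosen (0.0177%), in the homeobox gene Meis2 at chr2:116020207. The Myt1l site had 12.2% of 41 reads in the BPA pool and 29.2% of 48 reads in the control pool of hypothalamus, 62.9% and 74.5% in adipose tissue, and 74.7% and 63.2% in liver.

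Among feeding neuropeptides and their receptors 3 of 1300 CpGs were chosen (0.231%). Of these 2 lay in the body of Ghrh, which encodes growth hormone-releasing hormone of the arcuate nucleus, 5 bp apart. The site at chr2:157347563 had 22.5% of 89 reads in the BPA pool and 14.7% of 68 reads in the control pool of hypothalamus, 72.5% and 59.8% in adipose tissue, and 83.8% and 72.6% in liver. The site at chr2:157347568 had 19.5% and 17.4% in hypothalamus, 74.5% and 67.6% in adipose tissue, and 83.3% and 77.0% in liver. The third was in Tac2, which encodes neurokinin B, at 27.4% and 25.9% in hypothalamus, 76.5% and 72.8% in adipose tissue, and 86.0% and 82.3% in liver.

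Genes of glutamate and GABA receptors held 10 of 4353 (0.230%), among them 3 in the GABA-B subunit Gabbr2, 2 each in the AMPA receptor subunit Gria1 and the metabotropic receptor Grm2, and 1 each in Grik5 and Grid1. The pair assigned to Grm2 lies outside its body, within 5 kb of it and in the body of its neighbour Tex264. It had medians of 16.4% in the BPA pool and 18.7% in the control pool of hypothalamus, against 80.6% and 76.2% in adipose tissue and 82.0% and 77.6% in liver. Potassium channel genes held 10 of 4413 (0.227%), among them 3 in Kcnip1 and 1 each in Kcna2, Kcnd3 and Kcnj10. Calcium and sodium channel genes held 8 of 4194 (0.191%), 3 in Cacna2d2, 2 in Scn8a and 1 each in Cacna1c, Cacnb3 and Cacnb4.

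Glial lists also held some. Astrocyte genes had 3 of 1117 (0.269%), 2 in the bicarbonate transporter Slc4a4 and 1 in the angiotensinogen gene Agt. Slc4a4 had medians of 12.5% in the BPA pool and 16.4% in the control pool of hypothalamus, 85.7% and 83.0% in adipose tissue, and 87.4% and 89.1% in liver. Oligodendrocyte genes had 4 of 1427 (0.280%), of which 3 lay within 5 kb of Cldn11, a claudin of the myelin sheath, at medians of 31.2% and 29.5% in hypothalamus, 80.2% and 83.1% in adipose tissue, and 94.6% and 91.6% in liver. The other lay within 5 kb of Pdgfra, a marker of their precursors. In tanycyte and ependyma genes 1 of 756 was chosen (0.132%). It is assigned to Ccdc153, within 5 kb of it, and lies in the body of the neighbouring Pdzd3. Microglia and leukocyte genes (389 CpGs), endothelial genes (1403), hepatocyte genes (392), adipocyte genes (675) and genes of epididymis and testis (146) held 0. In the hepatocyte genes 82 CpGs (20.9%) were low only in liver, beside 0.451% of all well-covered CpGs. In the adipocyte genes 2 CpGs (0.296%) were low only in adipose tissue, beside 0.165% of all, and 21 (3.11%) were low only in liver. The counts per list are too small to set the lists apart from the background, and no test was made.

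**Figure D4:**
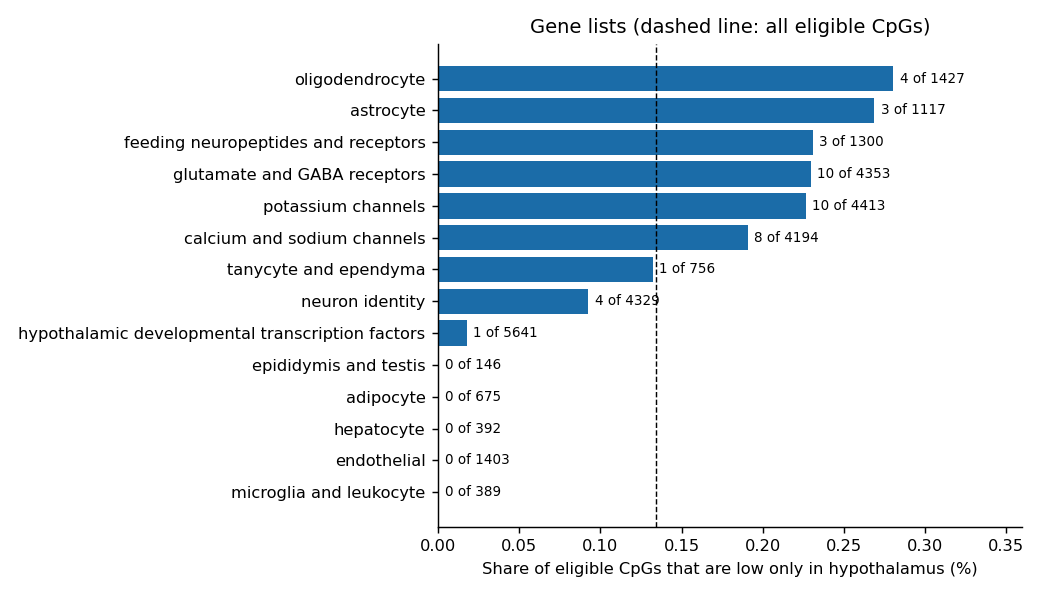
Percent of well-covered CpGs in each of 14 gene lists that were low only in hypothalamus, with the counts beside the bars and a dashed line at the 0.134% of all well-covered CpGs. Bars run from 0.280% for oligodendrocyte genes (4 CpGs) to 0 for 5 lists, each on few chosen CpGs.

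The label of the tissues was checked on CpGs that were low in no single tissue by the rule, using genes with at least 5 such CpGs. Hepatocyte genes had their lowest level in liver for 8 of 10 genes, and adipocyte genes in adipose tissue for 11 of 15. Adipose tissue was also the lowest for 14 of 18 genes of microglia and leukocytes, 13 of 18 endothelial genes and 8 of 13 genes of tanycytes and ependyma, so the adipocyte count did not set that tissue apart. Astrocyte genes were lowest in hypothalamus for 9 of 20 and neuron identity genes for 10 of 38, with 14 lowest in adipose tissue and 14 in liver. Methylation of neuronal genes in RRBS thus did not mark the hypothalamus, and the chosen CpGs are called by the tissue they were measured in, not by a cell type.

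The comparison of BPA with control was not part of the choice. Reads of the 2 pools were compared by Fisher's exact test as deposited, and adjusted after Benjamini and Hochberg over the nuclear CpGs of a tissue with 10 or more reads in each pool. Called CpGs had an adjusted p under 0.05 and differed by 5 or more percentage points. The test sets 2 pools of reads against each other and cannot speak for animals or treatments. In hypothalamus 0 of the 1710 CpGs were called, where 0.00599% of all tested CpGs were, and the smallest adjusted Fisher p was 0.886. At an unadjusted p under 0.05 there were 113 (6.61%), against 3.41% of all tested CpGs and 6.29% of those at 20 to 35% in that tissue, of which 0.0557% were called. In liver 0 were called, against 0.0259% of all tested CpGs, with 117 (6.84%) at an unadjusted p under 0.05. The unadjusted share was 4.21% over all tested CpGs and 6.33% over those at 65 to 85% in liver, of which 0.0328% were called.

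In adipose tissue 36 of the chosen CpGs were called (2.11%), 17 higher and 19 lower in the BPA pool. Of all tested CpGs 0.535% were called there, 0.252% higher and 0.283% lower, and of those at 65 to 85% in adipose tissue 1.04%. At an unadjusted p under 0.05 there were 316 (18.5%), beside 10.1% of all tested CpGs and 15.3% of CpGs at such a level. Median adipose coverage, BPA pool before control pool, was 235.5 and 207 reads at the chosen CpGs. Over all listed CpGs it was 164 and 144. The test can call smaller differences at deeper CpGs. No share at like depth was taken, so these shares do not set the chosen CpGs apart. Over all CpGs of the adipose table the squared difference between the pools was 2.20 times what counting error gives, and when the test statistic was divided by this excess 0 of the 1710 were called, beside 0.00107% of all tested CpGs, so this 0 says nothing about the set. The difference between pools had a median of 0 points in hypothalamus, 0.2 in adipose tissue and -0.3 in liver. Its interquartile range ran from -4.1 to 3.8 points in hypothalamus, -3.7 to 4.3 in adipose tissue and -3.4 to 2.8 in liver, so no shift of the set as a whole was visible.

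**Figure D5:**
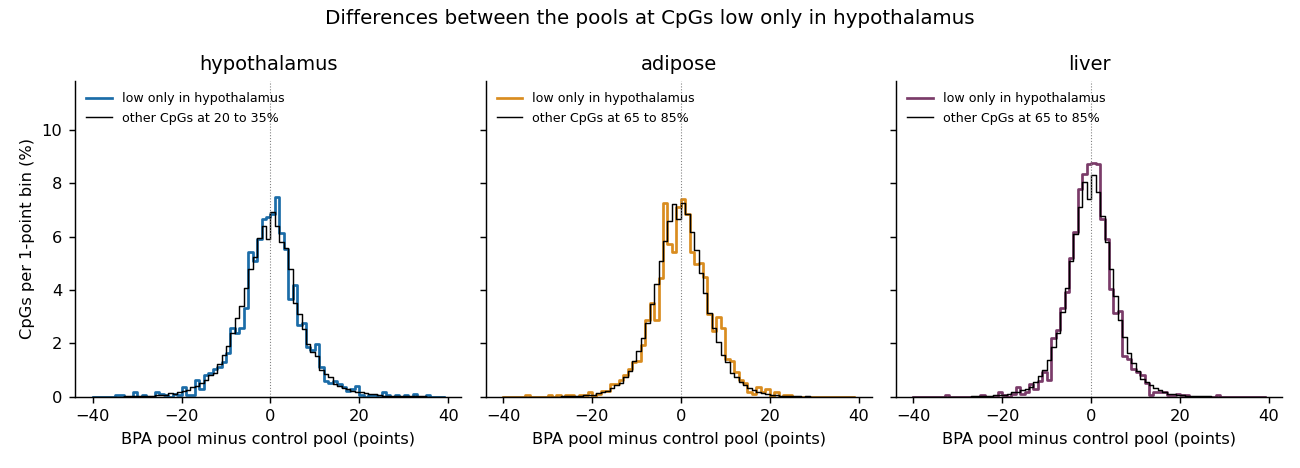
Distribution of the difference between BPA and control pools in percentage points over the 1710 chosen CpGs (colour) and other CpGs of a like level in that tissue (black), as percent of CpGs per 1-point bin. The histograms lie over each other and are centred near 0, with medians of 0 in hypothalamus, 0.2 in adipose tissue and -0.3 in liver for the chosen CpGs.

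The adipose call with the smallest p was in Tbc1d22a, a gene with a Rab GTPase-activating domain, at chr15:86276839. It had 78.7% of 328 reads in the BPA pool and 94.0% of 201 reads in the control pool, a difference of -15.3 points (-20.8 to -9.53, adjusted Fisher exact p = 0.00208). The same CpG had 30.5% and 27.3% in hypothalamus and 85.5% and 88.5% in liver. A CpG at chr17:67500406, over 5 kb from a gene, had 83.1% of 237 reads in the BPA pool and 61.8% of 173 reads in the control pool of adipose tissue, a difference of 21.3 points (12.6 to 29.8, adjusted Fisher exact p = 0.00280). It belongs to a cluster of 8 that together had 78.5% in the BPA pool and 76.1% in the control pool, so the large difference was not shared by the cluster. In hypothalamus the same CpG had 28.6% of 175 reads and 15.9% of 145 reads, a difference of 12.7 points (3.51 to 21.4) that did not pass the adjustment.

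Qtrt2, a subunit of a tRNA-modifying enzyme, had 89.0% and 65% in the BPA and control pools of adipose tissue at its called CpG (adjusted Fisher exact p = 0.00427). Lrmda had 83.1% and 61.7%, Golga7b 84.5% and 69.2%, and Abhd2, a lipid hydrolase, 88.5% and 65.2%. Lower in the BPA pool were CpGs in Rftn1, which encodes a lipid raft protein, at 65.2% and 80.3%, in the ETS factor Elk3 at 62.7% and 78.5%, in Evl, an actin regulator, at 64% and 86.0%, and in Ldlrad4 at 77.0% and 93.8%. In hypothalamus the interval of the difference held 0 at each of these 8 CpGs.

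The 3 smallest hypothalamic p-values were at single CpGs in Sorcs3, Bnip5 and Dnmt3a, and none passed the adjustment. Sorcs3, a sorting receptor of neurons, had 23.7% of 262 reads in the BPA pool and 37.0% of 311 reads in the control pool at chr19:48238487, a difference of -13.3 points (-20.6 to -5.76). The Bnip5 site at chr17:28905278, which also lies 13 bases after a start of 1700030A11Rik, had 12.5% of 64 reads and 36.2% of 94 reads. The site in Dnmt3a, a de novo DNA methyltransferase, at chr12:3857326 had 16.3% of 49 reads and 50% of 34 reads.

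A Wald test compared the log odds ratio of BPA against control between tissues at each CpG, adjusted over all well-covered CpGs. Between hypothalamus and adipose tissue 0 of the 1710 passed at an adjusted p under 0.05, against 0.0338% of all, with 203 (11.9%) at an unadjusted p under 0.05, beside 5.91% of all, and a smallest adjusted Wald p of 0.0680. Between hypothalamus and liver 0 passed, against 0.00447% of all, with 133 (7.78%) at an unadjusted p under 0.05, beside 3.89% of all. Between adipose tissue and liver 1 passed, where 0.0707% of all did, and 203 (11.9%) had an unadjusted p under 0.05, beside 6.96% of all. Unlike for Fisher's test, no share was taken over CpGs at like levels, so these unadjusted shares do not set the chosen CpGs apart.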

How the data were processed

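DNA methylation was measured by RRBS in 18 samples, 3 of each treatment and tissue. Libraries began from 100 ng of DNA, per the labels' protocols, and MspI fragments with adapters were size-selected before bisulfite conversion and PCR. The submitters' processing notes name BSMAP and the builds GRCm38 and mm10. The BSMAP version and the handling of PCR copies were not given in the sources used here. The authors deposited 1 table per tissue that sets pool 0 against pool 1. Per the file headers, it holds the deposited read counts per CpG in each pool, the deposited methylation fraction of those reads, and the deposited p-value from Fisher's test of the pools. Recomputing that p at 5130 tests of the chosen CpGs gave a value within 1% of the deposited p in 100%. Positions are 1-based.

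The thresholds, gene lists, motifs and the set itself were chosen with earlier results of these data known. Levels joined over several CpGs are methylated reads over all reads. The Benjamini-Hochberg adjustment took all nuclear CpGs with at least 10 reads in each pool. The Wald test added 0.5 to each cell. Both tests are two-sided, treat reads as independent and measure no spread between animals. PCR reads without molecular identifiers, and CpGs on 1 read, are not independent. The procedure was tested on simulated reads with counting error only, at read depths of hypothalamus. That simulation lacked the excess of 2.20 seen in adipose tissue, so it does not vouch for the calls there. A design with values per sample had been foreseen, and its logistic model was not run because the tables used hold pools. Genes came from a RefSeq table of GRCm38.p6 without strands or exons, with 49943 genes used, so a CpG is placed only in a gene body or within 5 kb. The table of windows has none on chromosome 18 and lacks starts of some genes elsewhere, Vxn and Cdk5r1 among them. All 382 entries of the 14 gene lists matched. A site in the bodies of overlapping genes counts for each.

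Named were the 20 genes with the most chosen CpGs, genes at the 10 largest clusters, genes of the lists, genes of called CpGs (up to 10 per tissue), the 10 lowest CpGs with both other tissues at 90% or more, and genes with a chosen CpG in a window. Some genes that this rule takes in are not reported here. Trpm3, Ddc, Dnmt3a, Sorcs3, Bnip5 and the miRNAs were named after their values were seen. Calculations used Python 3.11.15 with numpy 2.4.6, scipy 1.17.1, pandas 2.3.3 and matplotlib 3.10.9.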

Additional observations from a re-analysis of the deposited data

Results flagged for a closer look

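At 1 of the 1710 chosen CpGs a Wald chi-square test of the pooled reads between adipose tissue and liver passed the adjustment over all 1275720 well-covered CpGs (adjusted Wald p = 0.000956). The same test passed at 0.0707% of all of these, so 1 among 1710 is near the background. The CpG is at chr14:43812322, over 5 kb from any gene. In adipose tissue 93.7% of 379 reads in the BPA pool and 84.0% of 325 reads in the control pool were methylated, a difference of 9.7 points (5.05 to 14.5). In liver 68.9% of 289 reads in the BPA pool and 80.8% of 317 reads in the control pool were methylated, a difference of -11.9 points (-18.7 to -4.99). Hypothalamus had 34.2% of 231 reads and 35.4% of 198 reads, a difference of -1.2 points (-10.2 to 7.79). The adipose difference was called (adjusted Fisher exact p = 0.0205) and the liver difference was not (adjusted Fisher exact p = 0.487). Each value is 1 pool, and the spread between animals was not measured.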

How the results depend on the processing

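The number of CpGs low only in hypothalamus depended on the thresholds. With 30% and 70% in place of 35% and 65% there were 694, with 25% and 75% there were 256, and with 40% and 60% there were 3797. With the thresholds met in each pool alone there were 1075. Read minimums of 10 and 40 per pool gave 1955 and 1437, and the unweighted mean of both pools gave 1701, of which 1675 were among the 1710. The adipose count of 36 called CpGs became 15 among CpGs that met the thresholds in each pool alone, and 0 when the chi-square statistic was divided by the excess of 2.20, a construction that makes every p larger and called 0.00107% of all tested CpGs. The counts of 0 in hypothalamus and liver stayed at 0 under the alternatives run. The share in gene bodies was 63.7% with protein-coding genes only, which counts fewer genes, against 72.1%. The other 31 values of the main results under alternatives moved by less than 1.5 times or the spread set for them, and none reversed. Of 200 counts per named gene under the alternative choices, 152 stayed within 1.5 times and 48 did not, most of them under other thresholds. No paired analysis was possible because the tables used hold 1 pool per group, and for the same reason no replicate could be left out. Depth limits single CpGs: at 20 reads a level has a wide interval, and the intervals of 605 CpGs (35.4%) cleared all thresholds.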

Other observations

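The X chromosome was outside the choice. Under the same thresholds 24 of 43723 well-covered CpGs on it were low only in hypothalamus (0.0549%), 13 were low only in adipose tissue and 44 only in liver. Of the 24, 5 lay in Nlgn3, which encodes neuroligin 3, a postsynaptic adhesion protein. The Nlgn3 site at chrX:101302263 had 29.6% of 115 reads in the BPA pool and 16.3% of 86 reads in the control pool of hypothalamus, 84.7% and 81.4% in adipose tissue, and 95.8% and 93.8% in liver. Another 4 lay in the gene model Gm41890, where the site at chrX:12966105 had 27.4% and 16.8% in hypothalamus, 96.2% and 92.2% in adipose tissue, and 90.4% and 93.3% in liver. Nap1l2, a nucleosome assembly protein of neurons, held 2, and the pair had 34.4% and 34.4% in the BPA pool and 18.9% and 13.0% in the control pool of hypothalamus, from 64 reads each in the BPA pool and 53 and 54 reads in the control pool. Pqbp1, a splicing protein linked to intellectual disability in humans, held 2. The X-linked genes were named after their values were seen.

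The chosen CpGs were not spread evenly over chromosomes. Their share of the well-covered CpGs was highest on chromosome 15 at 0.263% (146 CpGs) and lowest on chromosome 2 at 0.0791% (75 CpGs). The 18 CpGs of Fignl2 are only a part of the 146 on chromosome 15. In these shares the CpGs of a cluster were counted singly.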
